A study of Mus musculus with 2 samples.

Results

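Inorganic ion and metal solute carriers are the membrane proteins that move sodium, protons, chloride, bicarbonate, sulfate, phosphate, calcium, zinc, manganese and magnesium across cell and organelle membranes. Their genes were taken by symbol from the deposited table: every gene of the solute carrier (Slc) families 4, 8, 9, 12, 20, 24, 26, 30, 34, 39 and 41. The rule gave 81 of the 18919 genes in the table. Of these, 3 carry a family name without being transporters: Slc9a3r1 and Slc9a3r2 encode scaffold proteins, and Slc4a1ap encodes an adaptor protein. RNA came from the intestine of untreated C57BL/6 mice of 2 months, kept specific-pathogen-free. All of them carried the Min mutation of Apc, a truncating change in a tumour suppressor that leads to intestinal adenomas. The control pool had APCmin alone. The knockout pool had APCmin with Setd2IEC-/-, a loss of the histone H3 lysine methyltransferase Setd2 in intestinal epithelial cells, so that cells other than epithelium kept the gene. The promoter that drove the deletion and the stretch of intestine sampled are not given in the sources used here. Each pool was the mixed RNA of 3 littermates and gave 1 library, so no difference below has a replicate check and no p-value was computed.

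In the small intestine, apical sodium-proton exchangers of the Slc9 family work beside anion exchangers of the Slc26 family to absorb salt, while members of the Slc12 and Slc4 families load chloride and bicarbonate from the blood side for secretion. The Slc39 (ZIP) family brings zinc and related metals into the cytosol, and the Slc30 (ZnT) family takes them out, either to the exterior or into vesicles. Metallothioneins bind zinc inside the cell, and the zinc-sensing factor Mtf1 switches on their genes through short promoter motifs named metal response elements.

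The libraries were of like depth, at 8809678 expected counts for control and 8646358 for knockout. Setd2 was at 6.87 FPKM (fragments per kilobase of transcript, scaled to sequencing depth) in control and 3.47 in knockout, with a count ratio of 0.504 and a 95% counting interval of 0.432 to 0.587. All count ratios are knockout over control after scaling to the library totals. Their intervals are exact Clopper-Pearson intervals that cover counting error only, not the spread between mice. Markers of several cell types differed in level between the pools. Villus enterocyte markers were lower for 17 of 18 genes, with a summed FPKM of 33961 in control and 24871 in knockout, and crypt stem and progenitor markers were higher for 15 of 15, at 263.7 and 386.4. Exocrine pancreas markers were higher for 14 of 14 genes, at 67.4 and 2651 summed FPKM, with none at 0 in either library. Of 10 stomach markers that the table lists, 7 reached 1 FPKM in at least 1 library, and all 7 were higher. Each of the 7 was below 1 FPKM in the control pool and passed only through the knockout pool, which fixed its direction. The 10 markers were at 3.3 and 68.3 summed FPKM, with Gkn2, Muc5ac and Gif at 0 in the control pool. Pga5, below 1 FPKM in both, was at 0.16 and 0. Of the other lists, summed FPKM in control and knockout was 5091 and 3629 for goblet cells and 158.7 and 112.4 for immune cells. Enteroendocrine markers had 253.2 and 237.6 summed FPKM but a ratio of summed counts of 1.07 (1.02 to 1.13). Of these 8 genes, 4 were higher and 4 lower. Pancreatic islet markers had 268.8 and 201.8 summed FPKM, of which Slc2a2 alone gave 258.95 and 197.57, with Ins1 at 0 in both. Summed FPKM was 18.4 and 26.4 for endothelium, 9.66 and 8.54 for enteric neurons and glia, and 1 and 1.43 for kidney and other epithelia. In such bulk samples, fewer cells of a type and less RNA per cell cannot be told apart.

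Of the 81 genes, 52 were measured, meaning an FPKM of 1 or more in at least 1 library, 27 were detected below that level, and 2, Slc4a9 and Slc12a3, were at 0 in both. Differences between pools are given as the log2 of (knockout FPKM + 1) over (control FPKM + 1), a pseudocount that understates the differences of low genes. By this measure 1 member of 52, Slc4a11, was at least 2-fold higher and 0 were at least 2-fold lower, while among all 13253 measured genes 2.78% were higher and 1.28% lower. At a smaller cut, a log2 ratio of 0.5 in either direction (1.41-fold), 5 members (9.62%) were higher beside 10.5% of all measured genes, and 3 (5.77%) were lower beside 4.72%. These shares of the members lie near those of all measured genes. Slc4a11 was measured only through the knockout pool, and Slc26a10 and Slc41a3, which are among the 3 lower members, only through the control pool.

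The median log2 ratio of the 52 members was 0.04, beside 0.08 for all measured genes. Ratios above 0 were found for 28 of 52 members (53.8%, beside 62.5% of all genes) and below 0 for 24 (46.2%, beside 37.2%). With the median gene ratio as the scale between libraries, a shift of -0.10 on the log2 scale, 20 of the 52 members were above 0, or 38.5%, beside 49.8% of all genes. The counting interval lay above 1 for 14 members, a share of 26.9% beside 28% of all genes, and below 1 for another 14, or 26.9% beside 12.5%. With the median gene ratio as the scale, these became 9 members (17.3%, beside 18.7% of all genes) above 1 and 17 (32.7%, beside 19.8%) below. The members that left the first group were Slc9a3, Slc30a6, Slc39a7, Slc39a8 and Slc39a11. Intervals narrow as counts rise, so these shares depend on how well genes are counted. In the higher library, 48 of the 52 members and 11246 of the 13253 measured genes had 50 or more counts. Levels differed far more among members than between pools. Slc9a3r1 stood at 755.7 FPKM in the control pool, and 10 members reached 50 FPKM in at least 1 library, 21 reached 10 to 50 and 21 stayed between 1 and 10.

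**Figure D1:**
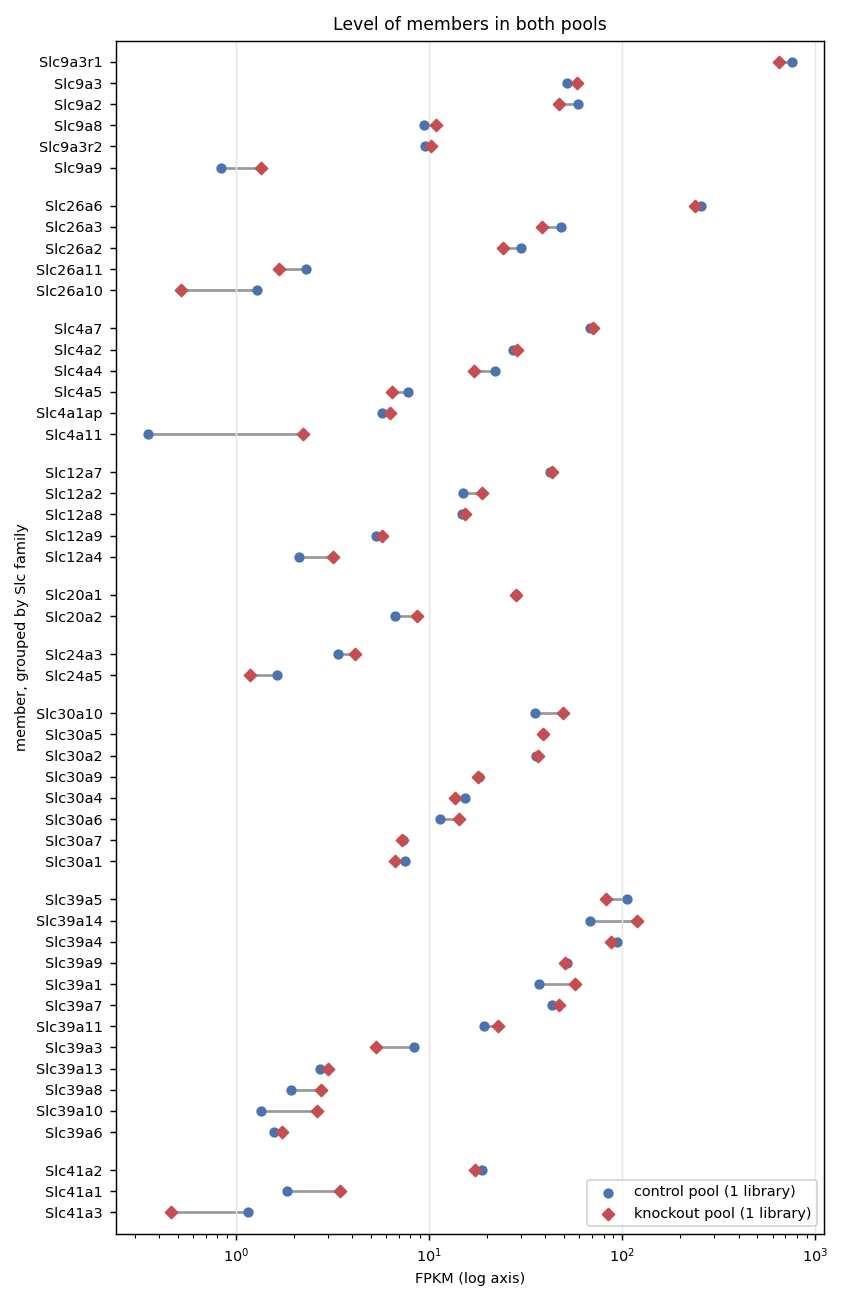
FPKM of 49 of the 52 measured members on a log axis, with the control pool as blue circles and the knockout pool as red diamonds, 1 library each, and genes grouped by Slc family. For most members the symbols lie close together, while Slc4a11, Slc39a14 and Slc41a1 lie further right in the knockout pool and Slc26a10 and Slc41a3 further left.

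**Figure D2:**
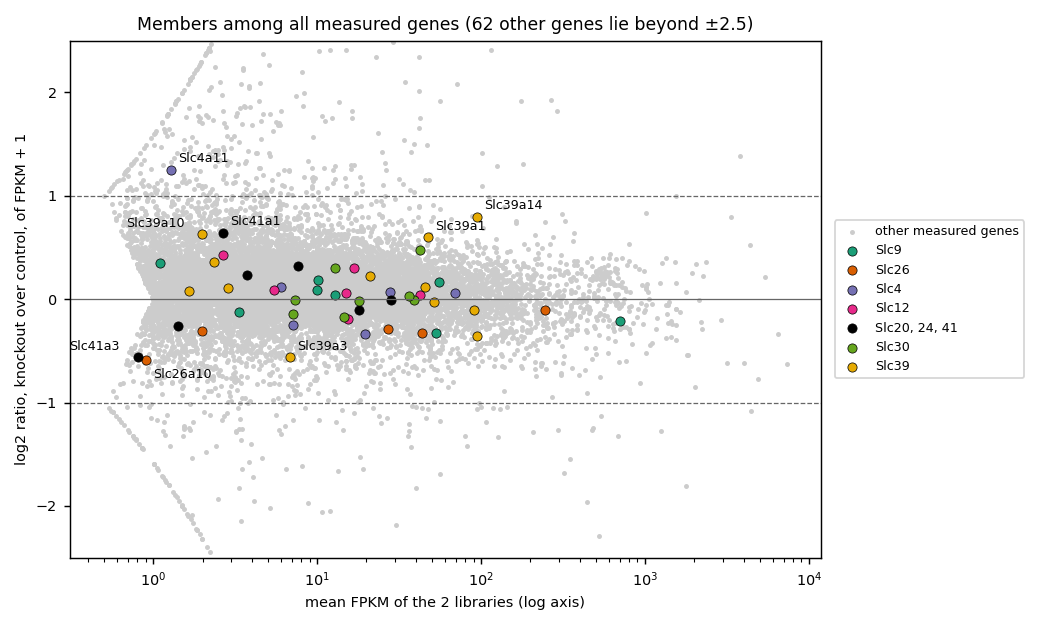
Log2 ratio of knockout over control (FPKM + 1) against mean FPKM (log axis) for all measured genes, with members coloured by family and dashed lines at 2-fold. Slc4a11 is the one member beyond 2-fold, and Slc39a14 and Slc39a1 stand out among the abundant members. The vertical axis stops at 2.5 in both directions, and 62 other genes lie beyond it.

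Among the metal importers, transcripts of Slc39a14 and Slc39a1 were more abundant in the knockout pool, and those of Slc39a4 and Slc39a5, which serve zinc uptake at the apical and basolateral faces of enterocytes, were slightly less abundant. Slc39a14 encodes ZIP14, which carries manganese, zinc and iron that is not bound to transferrin (on chromosome 14 from 70303467 to 70351452 in GRCm38). It was at 68.2 FPKM in control and 119.4 in knockout, from 2994 and 5139 expected counts, a ratio of 1.75 (1.67 to 1.83). Slc39a1 (ZIP1), a zinc importer of the plasma membrane on chromosome 3, was at 37.3 and 57.1 FPKM, and its ratio was 1.53 (1.40 to 1.68). Both genes had intervals clear of 1, and their log2 ratios of 0.80 and 0.60 stayed short of 2-fold.

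Slc39a10 (ZIP10), a zinc importer of the plasma membrane, was a low transcript, at 1.35 FPKM in control and 2.63 in knockout, from 60 and 115 counts (ratio 1.95, 1.42 to 2.71). Slc39a8 (ZIP8), the closest relative of Slc39a14 and likewise a carrier of manganese and zinc, was at 1.92 and 2.75 FPKM, and its ratio of 1.42 had an interval just above 1 (1.003 to 2.03). Slc39a5 was at 105.9 FPKM in control and 82.5 in knockout (0.776, 0.723 to 0.833), and Slc39a4 at 93.4 and 87.0 (0.931, 0.871 to 0.995). Slc39a3 (ZIP3), also a zinc importer of the cell surface, had the lowest ratio of the family, at 8.31 and 5.31 FPKM from 257 and 161 counts (0.638, 0.521 to 0.780). Higher and lower members stood side by side in the family: 8 of its 12 measured genes were above 0 (beside 62.5% of all genes), with a median log2 ratio of 0.11, and the intervals of 6 lay above 1 (28% of all genes) and of 3 below (12.5%). With the median gene ratio as the scale 8 genes were still above 0 (beside 49.8% of all genes), but the median was 0.03. Under that scaling 3 intervals lay above 1 (18.7% of all genes) and 4 below (19.8%).

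The rank order within the family differed between the pools. By FPKM, Slc39a5 came first in the control pool with 24.3% of the summed family level, followed by Slc39a4 with 21.5% and Slc39a14 with 15.7%. In the knockout pool Slc39a14 came first with 24.7%, followed by Slc39a4 with 18% and Slc39a5 with 17.1%. The summed counts of all 14 Slc39 genes had a ratio of 1.19 (1.16 to 1.22). Without Slc39a14 the ratio was 1.0003 (0.971 to 1.03) for the other 13 genes. With the median gene ratio as the scale the sums gave 1.11 (1.08 to 1.14) with Slc39a14 and 0.933 (0.906 to 0.962) without it, beside 0.932 for the sum of all measured genes. Organelle members were close between pools: Slc39a7 of the endoplasmic reticulum was at 43.30 and 47.15 FPKM, Slc39a9 of the Golgi at 51.9 and 50.7, and Slc39a13 at 2.73 and 3.01. Slc39a11 was at 19.4 and 22.8 FPKM (1.18, 1.04 to 1.34) and Slc39a6 at 1.58 and 1.73, while Slc39a2 and Slc39a12 stayed below 1 FPKM in both pools.

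Among the 8 measured Slc30 genes, Slc30a10 had the highest ratio. This gene (chromosome 1, 185454848 to 185468762) encodes ZnT10, a plasma membrane protein that exports manganese. It was at 35.2 FPKM in control and 49.2 in knockout, from 1832 and 2516 counts, a ratio of 1.40 (1.32 to 1.49). Slc30a1 (ZnT1), the zinc exporter of the plasma membrane, was at 7.51 and 6.69 FPKM, and the interval of its ratio, 0.762 to 1.04, includes 1. Of the zinc carriers of the secretory pathway, Slc30a6 was at 11.45 and 14.30 FPKM (1.25, 1.04 to 1.499). Its interval included 1 when scaled by the median gene ratio (0.970 to 1.40). Slc30a5, which pairs with Slc30a6, was at 39.1 and 38.9 FPKM and Slc30a7 at 7.32 and 7.27. Slc30a2 (ZnT2), which fills secretory granules with zinc in Paneth and pancreatic acinar cells, was at 35.8 and 36.5 FPKM with 1054 counts in each library. Paneth markers were lower for 7 of 7 genes, at 11326 summed FPKM in control and 5866 in knockout, and pancreas markers were higher for 14 of 14, at 67.4 and 2651; their part in the Slc30a2 value was not tested. The vesicular carrier Slc30a4 was at 15.4 and 13.6 FPKM (0.891, 0.801 to 0.991) and mitochondrial Slc30a9 at 18.2 and 18.0. The islet gene Slc30a8 and the neuronal gene Slc30a3 stayed at or under 0.26 FPKM. Without Slc30a10 the summed counts of the Slc30 family had a ratio of 0.987 (0.947 to 1.03), and with it 1.10 (1.07 to 1.14). Scaled by the median gene ratio, these were 0.921 (0.883 to 0.959) and 1.03 (0.996 to 1.07), where all measured genes gave 0.932.

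Beside these carriers stood a list of 12 genes for zinc storage, the metal response and magnesium flux, of which 9 were measured. One gene of the list, Mt1 (metallothionein 1), was at least 2-fold higher, 0 were lower, and the median log2 ratio was 0.02, or -0.08 when scaled by the median gene ratio. Mt1 was at 128.5 FPKM in control and 455.95 in knockout, from 631 and 2197 counts, a ratio of 3.55 (3.25 to 3.88). Mt2 was at 19.92 and 39.95 FPKM, with a ratio of 2.00 (1.55 to 2.60) and a log2 ratio of 0.97, just under the 2-fold rule. Mtf1, the metal-sensing factor, was at 5.91 and 5.40 FPKM (0.913, 0.790 to 1.05), and Cnnm2, a magnesium transporter or regulator, had the lowest ratio of the list at 5.25 and 4.17. Exocrine pancreas markers, at 67.4 and 2651 summed FPKM, and crypt markers, at 263.7 and 386.4, were higher in the same pool, and their part in the metallothionein and Slc39 values was not tested.

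The promoters of the metal carriers were searched for metal response elements. The 250 bases before each annotated start were searched on both strands for TGCACNC and TGCGCNC, the core of that element. The table of RefSeq promoters (GRCm38.p6) holds 64 of the 81 members, with 81 windows, and Slc39a14 and Slc4a11 are not among them. A match was found in 28 of the 81 member windows (34.6%), in 11 of 25 windows of Slc30 and Slc39 genes (44%), and in 21.4% of all 32851 windows, where a palindromic GTGCGCAC counts once for each strand. Of the measured members in that table, a match stood in a window of 6 of the 10 genes whose interval lay above 1, 6 of the 10 below 1 and 8 of the 20 whose interval includes 1. Printed 5′ to 3′ with matches in capitals are windows of the members past a log2 ratio of 0.5 in either direction, the first 3 higher and the next 2 lower in the knockout pool, then the exporter pair Slc30a10 and Slc30a1. Each is the part of the window that lies before the RefSeq gene and overlaps no exon of GENCODE M21.
Slc41a1: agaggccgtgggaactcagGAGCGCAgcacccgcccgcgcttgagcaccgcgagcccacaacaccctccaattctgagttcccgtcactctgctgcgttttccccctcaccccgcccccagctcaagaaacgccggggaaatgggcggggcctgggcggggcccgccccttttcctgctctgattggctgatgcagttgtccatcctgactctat
Slc39a10: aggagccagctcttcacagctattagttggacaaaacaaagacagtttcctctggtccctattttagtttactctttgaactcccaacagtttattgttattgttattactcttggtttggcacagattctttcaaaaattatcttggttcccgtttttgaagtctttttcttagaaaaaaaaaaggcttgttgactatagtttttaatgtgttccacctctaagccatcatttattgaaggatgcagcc
Slc39a1: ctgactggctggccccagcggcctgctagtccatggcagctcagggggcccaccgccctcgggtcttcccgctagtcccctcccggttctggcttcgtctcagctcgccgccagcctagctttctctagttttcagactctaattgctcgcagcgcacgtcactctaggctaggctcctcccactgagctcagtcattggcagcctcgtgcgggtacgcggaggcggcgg
Slc39a3: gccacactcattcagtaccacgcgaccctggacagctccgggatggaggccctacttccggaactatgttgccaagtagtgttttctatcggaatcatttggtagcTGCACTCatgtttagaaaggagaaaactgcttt
Slc26a10: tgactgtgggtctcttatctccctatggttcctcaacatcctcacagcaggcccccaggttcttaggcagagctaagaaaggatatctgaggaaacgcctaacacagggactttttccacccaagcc
Slc30a10: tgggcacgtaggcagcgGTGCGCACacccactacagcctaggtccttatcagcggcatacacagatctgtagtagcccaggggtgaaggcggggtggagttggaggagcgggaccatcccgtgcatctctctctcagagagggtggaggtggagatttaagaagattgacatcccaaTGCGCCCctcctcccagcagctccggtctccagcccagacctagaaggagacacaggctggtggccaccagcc
Slc30a1: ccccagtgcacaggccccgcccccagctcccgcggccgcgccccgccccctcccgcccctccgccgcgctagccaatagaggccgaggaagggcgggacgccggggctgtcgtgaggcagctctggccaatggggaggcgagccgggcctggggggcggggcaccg
The stretches lie at chr1:131827762-131827976, plus strand; chr1:46925777-46926026, minus strand; chr3:90247942-90248171, plus strand; chr10:81037427-81037565, minus strand; chr10:127180706-127180832, minus strand; chr1:185454598-185454847, plus strand; and chr1:191906531-191906696, plus strand. Slc30a10 held 3 matches, of which 2 are the overlapping strands of the same GTGCGCAC, Slc41a1 and Slc39a3 held 1 each, and the others held none. The window of Slc30a1 has its match in the part that lies inside the RefSeq gene, and the window of Slc41a3, with 1 match, lies wholly inside its gene, so neither match is printed. Matches thus stood before genes that were higher (Slc30a10, Slc41a1) and before one that was lower (Slc39a3). A match describes letters in a window, not binding.

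Magnesium carriers diverged. Slc41a1, a sodium-dependent magnesium exporter of the plasma membrane (on chromosome 1 between 131828012 and 131848863), stood at 1.85 FPKM in control and 3.45 in knockout, from 77 and 141 counts, a ratio of 1.87 (1.40 to 2.496). Slc41a3, its mitochondrial relative on chromosome 6, was at 1.15 and 0.46 FPKM from 23.0 and 9.08 counts (0.399, interval from rounded counts 0.162 to 0.894). Slc41a3 was measured only through the control pool, which fixed its direction. Slc41a2, the most abundant of the family, was at 18.7 and 17.3 FPKM, and its interval of 0.831 to 1.03 includes 1. As a sum the 3 genes had a ratio of 0.997 (0.904 to 1.10), although 1 was higher and 1 lower.

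**Figure D3:**
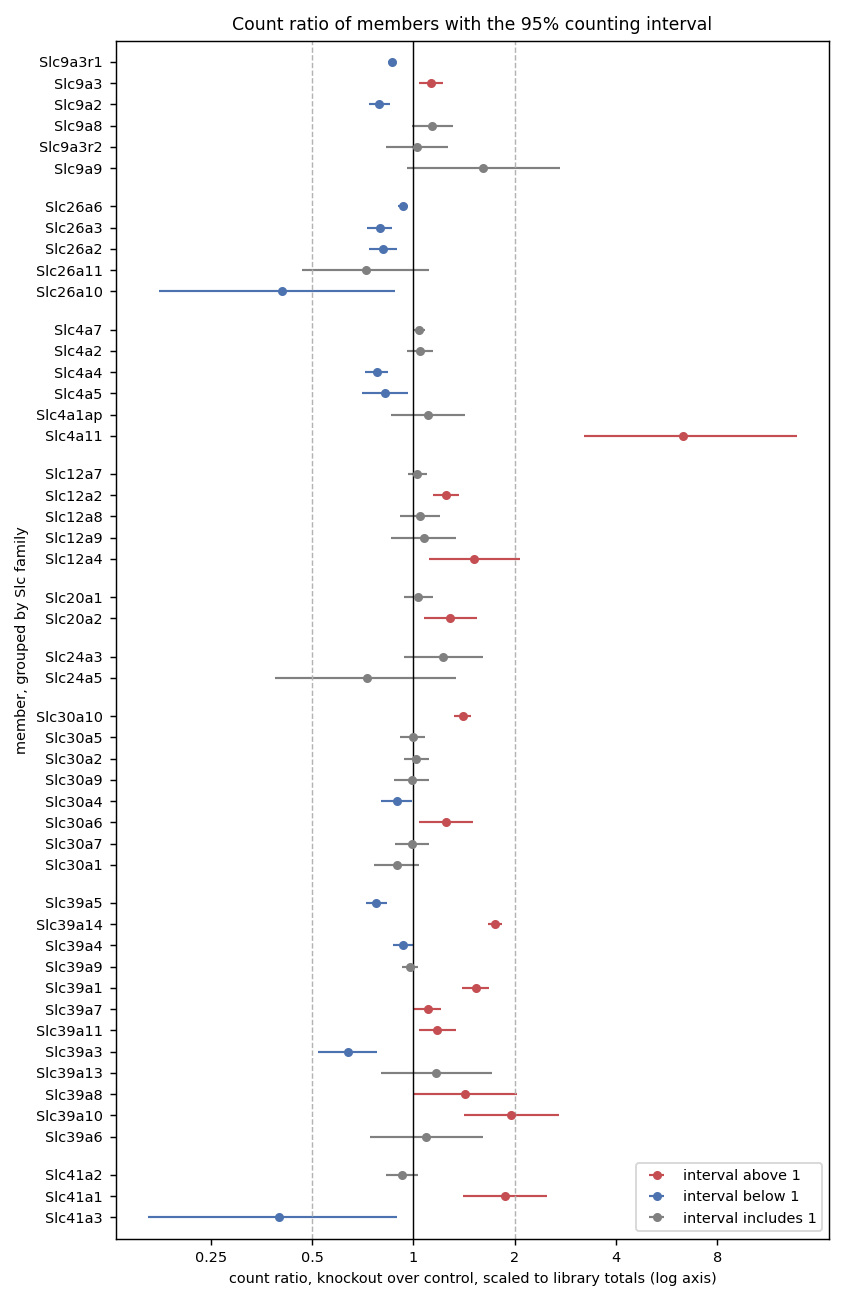
Count ratio of knockout over control (log axis) for 49 of the 52 measured members with 95% counting intervals, red where the interval lies above 1, blue below 1 and grey where it includes 1; dashed lines mark 2-fold. The 5 measured Slc26 members lie left of 1, the Slc39 members spread to both sides, and Slc4a11 has a ratio of 6.32 with a wide interval.

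Sodium-proton exchangers of the brush border went in different directions. Slc9a3 (NHE3), the main apical sodium-proton exchanger of the small intestine, was at 51.75 FPKM in control and 58.3 in knockout (1.13, 1.04 to 1.22), and its interval included 1 when scaled by the median gene ratio (0.969 to 1.14). Slc9a2 (NHE2), a second apical exchanger, was at 59.1 and 46.8 FPKM (0.792, 0.738 to 0.849). By FPKM, Slc9a2 stood above Slc9a3 in the control pool and below it in the knockout pool. Slc9a8 was at 9.45 and 10.9 FPKM, with an interval that includes 1. The endosomal exchanger Slc9a9 was low, at 0.84 and 1.35 FPKM, and Slc9a4, Slc9a5 and Slc9a7 were below 1 FPKM in both. The summed counts of the 9 exchangers had a ratio of 0.962 (0.921 to 1.006), or 0.898 (0.859 to 0.938) scaled by the median gene ratio, beside 0.932 for all measured genes.

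Slc9a3r1 (NHERF1), the PDZ scaffold that ties NHE3 and other membrane proteins to ezrin in the microvillus, was the most abundant of all 81 genes. It was at 755.7 FPKM in control and 651.15 in knockout, from 12795 and 10818 counts, a ratio of 0.861 (0.840 to 0.884). Slc9a3r2 (NHERF2) was at 9.58 and 10.2 FPKM, and its interval of 0.826 to 1.27 includes 1. In a list of 24 scaffolds, kinases and hormones that regulate ion exchangers, 22 genes were measured, 0 were at least 2-fold higher and 1 was lower, with a median log2 ratio of -0.07. The lower gene was Sgk1, a kinase induced by glucocorticoids and mineralocorticoids that stimulates sodium transport, at 149.1 and 64.8 FPKM (0.434, 0.407 to 0.462). Guca2b (uroguanylin), a peptide that inhibits sodium absorption and the most abundant gene of the list, was at 1199 and 833.15 FPKM (0.695, 0.668 to 0.723), and its relative Guca2a had the highest ratio, at 68.7 and 83.4 (1.21, 1.04 to 1.41). The scaffold Pdzk1, chosen after its values were seen, was at 116.27 and 80.35 FPKM.

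Anion exchangers of the Slc26 family were lower in the knockout pool in all 5 measured members (37.2% of all measured genes were below 0), also under the 2 other scalings tried. Their median log2 ratio was -0.31 as deposited and -0.39 with either other scaling. With those 2 scalings, 49.8% and 49.3% of all measured genes were above 0. One of the 5, Slc26a10, was measured only through the control pool. With no filter on low values, 2 of the 11 Slc26 genes were above 0 and the median was -0.13. Slc26a6 (PAT1), an apical exchanger of chloride, bicarbonate and oxalate and the most abundant transporter among the members, was at 254.7 FPKM in control and 237.55 in knockout (0.932, 0.902 to 0.964). Slc26a3 (DRA), the chloride-bicarbonate exchanger mutated in congenital chloride diarrhoea, was at 48.3 and 38.4 FPKM (0.794, 0.730 to 0.864). Slc26a2, a sulfate transporter, was at 29.8 and 24.2 FPKM (0.812, 0.739 to 0.891). Slc26a11 was at 2.31 and 1.67 with an interval that includes 1, and Slc26a10 at 1.28 and 0.52 from 25 and 10 counts (0.408, 0.175 to 0.879). The summed counts of the family had a ratio of 0.901 (0.876 to 0.928), and without Slc26a6 0.803 (0.755 to 0.853). Scaled by the median gene ratio, these were 0.841 (0.817 to 0.865) and 0.749 (0.704 to 0.796), where all measured genes gave 0.932. Villus enterocyte markers were lower for 17 of 18 genes in the same pool, with a ratio of summed counts of 0.755 (0.752 to 0.758), and their part in the Slc26 values was not tested.

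Members of the Slc26 family that belong to other organs were near 0. Slc26a9, an anion transporter of the gastric surface, had 0 counts in control and 19 in knockout, at 0.60 FPKM. Set against a floor of 3 counts in the control library, its 19 counts came to a 6.45-fold difference. The counting interval of its ratio, which also holds the error of the 19 counts, began at 4.75. Slc26a7, of the acid-secreting parietal cell, had 1 and 0 counts, and Slc9a4, a gastric exchanger, 3 and 6. Stomach markers were higher in the same pool, at 3.3 and 68.3 summed FPKM, and their part in the Slc26a9 value was not tested. Slc26a1, Slc26a4, Slc26a5 and Slc26a8 were at 0.69 FPKM or less in either library. Slc4a1 (band 3), the anion exchanger of red cells, had 0 and 3 counts, beside red cell markers at 67.8 and 241.1 summed FPKM. Of the 5 red cell markers measured, 4 had an interval above 1, all of them Hba or Hbb genes, and that of Ermap included 1. Below the measured level, Alas2 had 10 and 12 counts and Klf1 11 and 2.

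Bicarbonate carriers of the Slc4 family spread to both sides of 1. Slc4a7 (NBCn1), a sodium-bicarbonate cotransporter and the most abundant of the family, was at 67.85 FPKM in control and 70.5 in knockout, with an interval from 0.997 to 1.08. Slc4a2 (AE2), the housekeeping chloride-bicarbonate exchanger, was at 27.05 and 28.44 FPKM, and its interval includes 1. Slc4a4 (NBCe1), which loads bicarbonate across the basolateral membrane, was at 21.9 and 17.1 FPKM (0.778, 0.719 to 0.842), and its relative Slc4a5 at 7.81 and 6.43 (0.823, 0.702 to 0.963). The adaptor gene Slc4a1ap was at 5.69 and 6.27 FPKM, and Slc4a3, Slc4a8 and Slc4a10 stayed between 0.12 and 0.98 FPKM. Slc4a11, a family member that carries protons or ammonia and not bicarbonate (on chromosome 2 between 130684107 and 130697519), stood at 0.35 and 2.22 FPKM, out of 10 and 62 counts. Its ratio of 6.32 had an interval of 3.22 to 13.8, and its log2 ratio of 1.25 was the highest of the members.

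Of the Slc12 family, which holds the cation-chloride cotransporters, 5 of 6 measured genes were above 0 (62.5% of all genes were). When scaled by the median gene ratio, 2 of the 6 were, beside 49.8% of all genes. The median log2 ratio was 0.07, beside 0.08 for all measured genes, and -0.02 under that scaling. Slc12a2 (NKCC1), which loads chloride into secreting crypt cells from the blood side, was at 15.0 FPKM in control and 18.7 in knockout (1.25, 1.14 to 1.37). Slc12a4 (KCC1), a potassium-chloride exporter, was at 2.12 and 3.20 FPKM (1.51, 1.11 to 2.07). The most abundant, Slc12a7 (KCC4), was at 42.1 and 43.3 FPKM (1.03, 0.964 to 1.09), and its log2 ratio of 0.04 became -0.06 when scaled by the median gene ratio. Slc12a8 (14.7 and 15.4) and Slc12a9 (5.30 and 5.68) had intervals that include 1, and the neuronal Slc12a5 stayed at or under 0.21 FPKM.

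Channels, pumps and carbonic anhydrases that work with these carriers formed a list of 24 genes, of which 20 were in the table and 17 measured. None was at least 2-fold higher, 2 were lower and the median log2 ratio was 0.24, or 0.15 when scaled by the median gene ratio. With a pseudocount of 0.1 or 0.5 FPKM, TPM or CPM, 1 gene of the list was at least 2-fold higher. The lower genes were Car4, the membrane-bound carbonic anhydrase that supplies bicarbonate at the brush border (113.9 and 44.8 FPKM, 0.393, 0.354 to 0.436), and Clca4a (192.78 and 93.15 FPKM, 0.483, 0.460 to 0.507). The highest log2 ratio, 0.96, was that of Atp4a, the gastric proton pump, at 0.19 and 1.31 FPKM from 6 and 40 counts (6.79, 2.86 to 19.6). Atp4a was measured only through the knockout pool, which fixed its direction. It is also among the stomach markers, which had 3.3 and 68.3 summed FPKM, and their part in the Atp4a value was not tested. Genes of chloride secretion, chosen after their values were seen, were higher beside Slc12a2: the chloride channel Cftr was at 17.15 and 24.99 FPKM (1.46, 1.34 to 1.58) and the potassium channel subunit Kcne3 at 31.7 and 52.5 (1.72, 1.49 to 1.98). Crypt markers were higher for 15 of 15 genes in the same pool, at 263.7 and 386.4 summed FPKM, and their part in these values was not tested.

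Of the phosphate carriers the Slc20 pair, which supplies phosphate to most cell types, was measured. Slc20a1 (PiT1) was at 28.2 FPKM in control and 28.1 in knockout, with a count ratio of 1.03 (0.934 to 1.14), and Slc20a2 (PiT2) at 6.70 and 8.62 (1.29, 1.07 to 1.54). Slc34a2 (NaPi-IIb), the regulated apical phosphate cotransporter that in mice is mostly ileal, was below the measured level, at 0.91 and 0.30 FPKM from 34 and 11 counts (0.330, 0.151 to 0.666). The kidney genes Slc34a1 and Slc34a3 had at most 3 counts in either library. In the list of 14 genes for phosphate and calcium absorption, 8 were measured, 1 was at least 2-fold higher, 0 were lower and the median was -0.07. The higher gene was Trpv6, the apical calcium channel, at 3.10 and 7.57 FPKM (2.44, 1.87 to 3.20), whose log2 ratio of 1.06 no longer passed 2-fold with either other scaling. S100g (calbindin-D9k), the most abundant and the lowest by log2 ratio of FPKM plus 1, was at 1555 and 1343 FPKM.

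Sodium-calcium exchangers were scarce. Slc8a1 (NCX1), an exchanger of muscle and other excitable cells, was at 0.79 FPKM in control and 0.91 in knockout, from 132.02 and 148.52 counts (1.15, 0.904 to 1.46), and Slc8a2 and Slc8a3 stayed at or under 0.63. Smooth muscle markers stood at 527.7 and 519.8 summed FPKM. The potassium-dependent exchangers Slc24a3 (3.37 and 4.14 FPKM, ratio 1.23, 0.937 to 1.61) and Slc24a5 (1.63 and 1.19 FPKM) were measured with intervals that include 1, and Slc24a1, Slc24a2 and Slc24a4 had at most 2 counts, where a difference was not detectable at this depth.

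The listed transcript length is, for a gene with several transcripts, a mean weighted by their estimated abundance, and so gives a view of transcript use that the levels do not. Of 18 measured members with 2 or more transcripts, 3 had a listed length that differed by 2% or more between pools, a share of 16.7% beside 19.6% of 4166 such genes in all. In Slc39a13 the length was 2237 bases in control and 2377 in knockout, in Slc20a1 it was 3061.5 and 3172.5, and in Slc9a3r2 2070 and 1986. Slc39a14, with 3 transcripts, was at 4926 and 4922 bases, a change below the 2% rule. No error can be given for a length from 1 library.

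**Figure D4:**
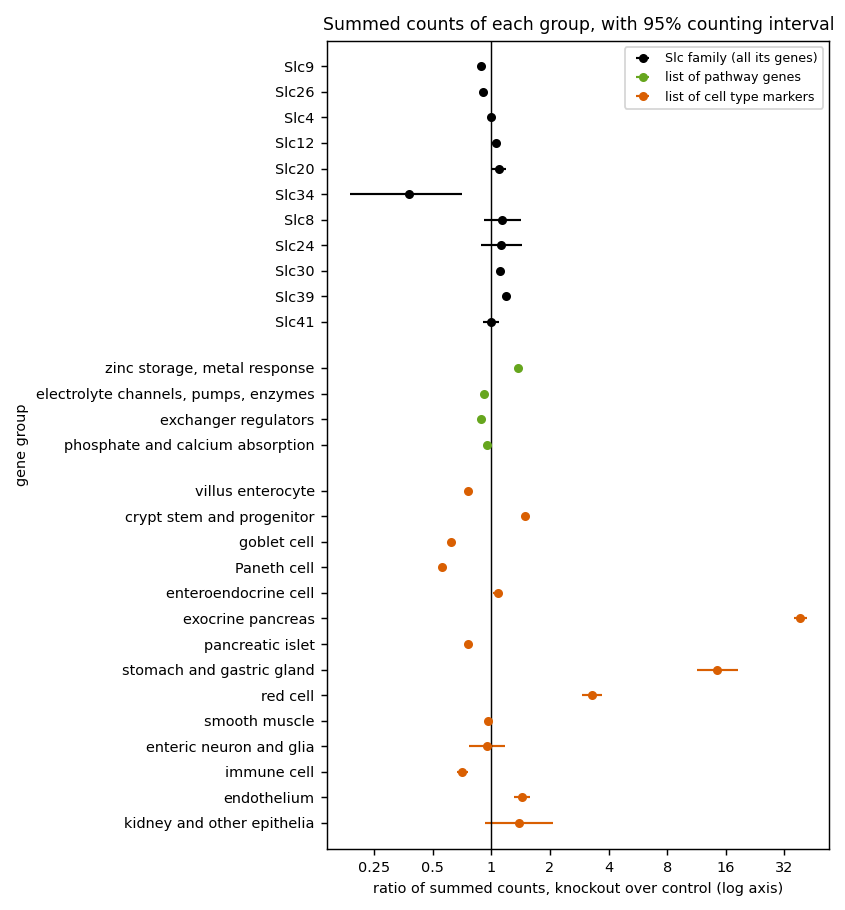
Ratio of summed counts, knockout over control (log axis), with 95% counting intervals for each Slc family (black), each list of pathway genes (green) and each list of cell type markers (orange). The Slc families lie between 0.887 and 1.19 apart from Slc34, at 0.375 from 38 and 14 counts, while the marker lists reach from 0.556 for Paneth cells to 38.5 for exocrine pancreas. The lowest of these, 0.887 for Slc9, includes the scaffold genes Slc9a3r1 and Slc9a3r2, and the 9 exchangers alone had 0.962 (0.921 to 1.006).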

How the data were processed

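RNA from 2 pools, each of 3 littermates, was sequenced as 1 library per genotype. Per the labels' protocols, reads were mapped to mm10 with BWA and Bowtie and quantified with RSEM; versions are not given in the sources used here. Per the file headers, the authors' sample files list expected counts and FPKM, and their joint table repeats the deposited FPKM, set to 0 for genes a sample file omits. RSEM divides reads that fit several genes; 78.1% of the control library's gene counts above 0 were whole. Depth was 8809678 and 8646358 expected counts; a floor of 3 counts equals 0.341 and 0.347 CPM. No row lacked a gene, and 0 sample columns were left unused.

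Members were genes whose symbol begins with an Slc family number of the rule; 26 date-like symbols were restored by gene identifier. Positions came from RefSeq GRCm38.p6 (81 of 81 members). Measured genes had an FPKM of 1 or more in at least 1 library. Ratios used FPKM plus 1. Intervals used counts rounded to whole numbers and hold counting error only, since reads without molecular identifiers are not independent molecules. The rule and intervals were tested on simulated data. Every measured member with a log2 ratio of 0.5 or more in size and the most abundant member of each family were given with intervals. Of each list, genes past 2-fold, the extremes and the most abundant were named; others are marked as chosen after their values were seen. The values of a few members and of 1 list gene are not reported here, though they are in the counts and sums. The members, the 4 lists of pathway genes and the 14 marker lists were chosen with earlier results of these data known. Scaled intervals were added after seeing the data. Alternatives were 2 pseudocounts, 3 filters, 2 scalings, TPM and CPM. The members' counts past 2-fold and their median were also taken without the 3 scaffold or adaptor members. Python 3.11.15, pandas 2.3.3 and scipy 1.17.1 were used. Near-identical genes were not examined separately.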

Additional observations from a re-analysis of the deposited data

How the results depend on the processing

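The count of members at least 2-fold lower, 0 as reported, was 2 with a pseudocount of 0.1 FPKM (Slc26a10 at -1.15 and Slc41a3 at -1.16). The count at least 2-fold higher, 1 as reported, was 0 among the 38 members with an FPKM of 5 or more, since Slc4a11 is below that level. The other 28 values of these counts and of the members' median stayed within 1.5 times or within the spread. That spread is of the median over genes, not between mice. The median changed sign with both other scalings, at -0.06 against 0.04. Members at a log2 ratio of 0.5 or more numbered 2 in place of 5, and at -0.5 or less 1 in place of 3, with the FPKM filter of 5. Genes of the whole table at least 2-fold higher and lower numbered 699 and 282 with a pseudocount of 0.1 FPKM, and 191 and 84 with the FPKM filter of 5, in place of 369 and 170; with 50 or more counts they numbered 216 and 80. Members with an interval above 1 numbered 8 in place of 14 with upper quartile scaling. No called member changed direction. No paired analysis was possible because each genotype had 1 library. Low members such as Slc26a10, Slc41a3 and Slc4a11 rest on 9.08 to 62 counts a library, and pools of 3 mice give no spread between animals.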
